A study of Homo sapiens with 6 samples.

Results

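Messenger RNA of 5 chemokine genes was followed in human keratinocytes after ultraviolet C (UVC) irradiation, with and without enzymatic removal of one class of DNA lesion. The genes were CXCL1, CXCL2, CXCL3, CXCL8 (also called IL8) and CCL20, chosen as a named list with earlier results of these data known. They were found by matching the Ensembl identifiers of the deposited files to symbols, which gave 5 of 19493 genes with values. The experiment used HaCaT, a spontaneously immortalised human epidermal cell line, and in all 3 groups the cells expressed the cyclobutane pyrimidine dimer (CPD) photolyase of the marsupial Potorous tridactylus, an enzyme that uses visible light to reverse CPDs. Control cells were untreated and their photolyase was inactive. UVC cells received 15 J/m2 at 254 nm, kept the photolyase inactive and were collected 6 h later. UVC + active photolyase cells received the same dose and were also exposed to white light for 2 h, which activated the enzyme. They too were collected 6 h after UVC, and the collection time of control cells is not given here. White light was applied to the last group alone, so an effect of the light itself and an effect of CPD removal cannot be told apart. Each group had 2 libraries, and the labels do not say whether these came from separate cultures, so each p-value reflects only how far these libraries differ from one another, which could be technical. Whether the photolyase line was 1 clone or a pool is not given in the sources used here.

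Chemokines are small secreted proteins that direct the migration of leukocytes. CXCL1, CXCL2, CXCL3 and CXCL8 carry a glutamate-leucine-arginine (ELR) motif before the first cysteines and recruit neutrophils through CXCR2, with CXCL8 also a strong ligand of CXCR1. CCL20 binds CCR6, which is carried by Th17 cells, B cells and immature dendritic cells. In keratinocytes these genes are induced by TNF, interleukin-1 and interleukin-17 through NF-kB and AP-1, and their mRNAs hold AU-rich elements that shorten their lifetime until stress kinase signalling stabilises them.

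Levels are given as scaled cRPKM, the authors' read density per uniquely mappable position corrected for library depth (corrected RPKM), divided here by each library's edgeR scaling factor, so levels of different genes can be compared per length. The factors ran from 0.884 to 1.18 and the library totals from 57669389 to 70005705 counts. A level is therefore relative to the other transcripts of its library, and fewer cells making a transcript cannot be told apart from less transcript per cell. Of 9 keratinocyte markers, 9 reached 1 cRPKM in every library, and their summed level was 31727 to 32698 scaled cRPKM in control libraries, 18157 to 18581 in UVC libraries and 30330 to 30356 where photolyase was active. Of 10 markers of neutrophils and other leukocytes, 1 or 2 reached 1 cRPKM, and their summed level was 2.58 to 4.14 scaled cRPKM over all libraries. CD14 reached 1 cRPKM in every library, with 152 to 266 counts. CD3E did so in the control libraries alone, with 63 to 204 counts over all libraries. PTPRC, which encodes the leukocyte antigen CD45, had 0 to 14 counts, and the neutrophil gene MPO was at 0 in 5 of 6 libraries. The summed markers were 7.33 to 9.59 scaled cRPKM for fibroblasts (2 or 3 of 7 at 1 cRPKM), 0.989 to 4.73 for endothelium (0 or 1 of 5, with PECAM1 not matched) and 1.34 to 2.24 for melanocytes (0 or 1 of 6). Among these markers, COL1A1 of fibroblasts had 2192 to 3192 counts and CDH5 of endothelium 148 to 1087. The keratinocyte sum thus moved with UVC in the direction opposite to the chemokines, and its part in the results below was not tested. Of the 9 keratinocyte markers, KRT5 was called higher and the other 8 lower after UVC, at an adjusted p under 0.05. With library totals in place of edgeR's factors, 2 were called higher and 6 lower.

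CXCL1, CXCL2, CXCL3 and CXCL8 lie in a single chemokine cluster, and CCL20 stands alone on another chromosome. In RefSeq's GRCh38.p14 annotation the cluster spans 358.6 kb of chromosome 4 and holds 9 chemokine genes in the order CXCL8, CXCL6, PF4V1, CXCL1, PF4, PPBP, CXCL5, CXCL3 and CXCL2. CXCL8 occupies chr4:73740569-73743716, CXCL1 chr4:73869393-73871308, CXCL3 chr4:74036589-74038689 and CXCL2 chr4:74097040-74099195, whereas CCL20 occupies chr2:227813842-227817556. CXCL2 and CXCL3 are on the minus strand and the other three on the plus strand. The 150 bases that end just before each annotated transcription start are shown because the 5 genes changed in the same direction but by very different amounts. They come from RefSeq's GRCh38.p14 promoter windows (chr4:73869243-73869392, chr4:74099196-74099345, chr4:74038690-74038839, chr4:73740419-73740568 and chr2:227813692-227813841) and are written 5′ to 3′ on the strand of the gene. Capitals mark a strict NF-kB motif (GGAATTTCC) and a TATA box (TATAAA).
CXCL1: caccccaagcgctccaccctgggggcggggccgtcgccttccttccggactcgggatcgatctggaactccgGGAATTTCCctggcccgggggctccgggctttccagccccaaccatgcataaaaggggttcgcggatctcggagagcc
CXCL2: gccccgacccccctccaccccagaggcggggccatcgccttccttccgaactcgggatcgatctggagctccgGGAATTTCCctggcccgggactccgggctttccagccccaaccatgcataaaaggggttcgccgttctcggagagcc
CXCL3: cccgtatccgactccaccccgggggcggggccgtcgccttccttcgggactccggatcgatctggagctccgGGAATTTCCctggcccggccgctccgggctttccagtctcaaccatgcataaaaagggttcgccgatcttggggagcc
CXCL8: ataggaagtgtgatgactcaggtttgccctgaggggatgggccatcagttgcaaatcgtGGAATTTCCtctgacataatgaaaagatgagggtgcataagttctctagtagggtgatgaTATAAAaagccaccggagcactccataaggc
CCL20: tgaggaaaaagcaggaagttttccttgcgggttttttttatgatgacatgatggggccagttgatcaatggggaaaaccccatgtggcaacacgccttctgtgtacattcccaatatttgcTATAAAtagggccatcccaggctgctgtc

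The strict NF-kB motif, searched on both strands from 250 bases before to 50 after the start, was present in 4 of the 5 windows. It began 78 bases before the start in CXCL1, 77 in CXCL2, 78 in CXCL3 and 91 in CXCL8. The same letters were found in 0.461% (162) of 35116 RefSeq promoter windows of that length. The CXCL1, CXCL2 and CXCL3 promoters are alike in sequence (identities below), so their matches are not independent of one another. A looser form, GGANNNTCC, which includes the strict one, was also in the CCL20 window, 207 bases before the start and so outside the printed stretch, and in 9.32% of all windows. An AP-1 motif (TGANTCA) was found in the CXCL8 window alone of the 5, starting 137 bases before the start and left in lower case above, against 7.71% of all windows. TATAAA was found in CXCL8 and CCL20, 31 and 29 bases before the start, against 11.5% of all windows, and a C/EBP motif (TTGCNNAA) in CXCL2 alone, 188 bases before the start, against 10.5%. Aligned over the 250 bases before the start, CXCL1 and CXCL3 were 81.4% identical, CXCL2 and CXCL3 73.3% and CXCL1 and CXCL2 70.4%. All pairs with CXCL8 or CCL20 were 42.0% to 48.2% identical. These matches describe letters in the windows and show no binding. Only exact matches to these letters were sought, so related forms of each site would be missed, in these 5 windows as in all others. A motif not found here does not show that such a site is absent.

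**Figure D1:**
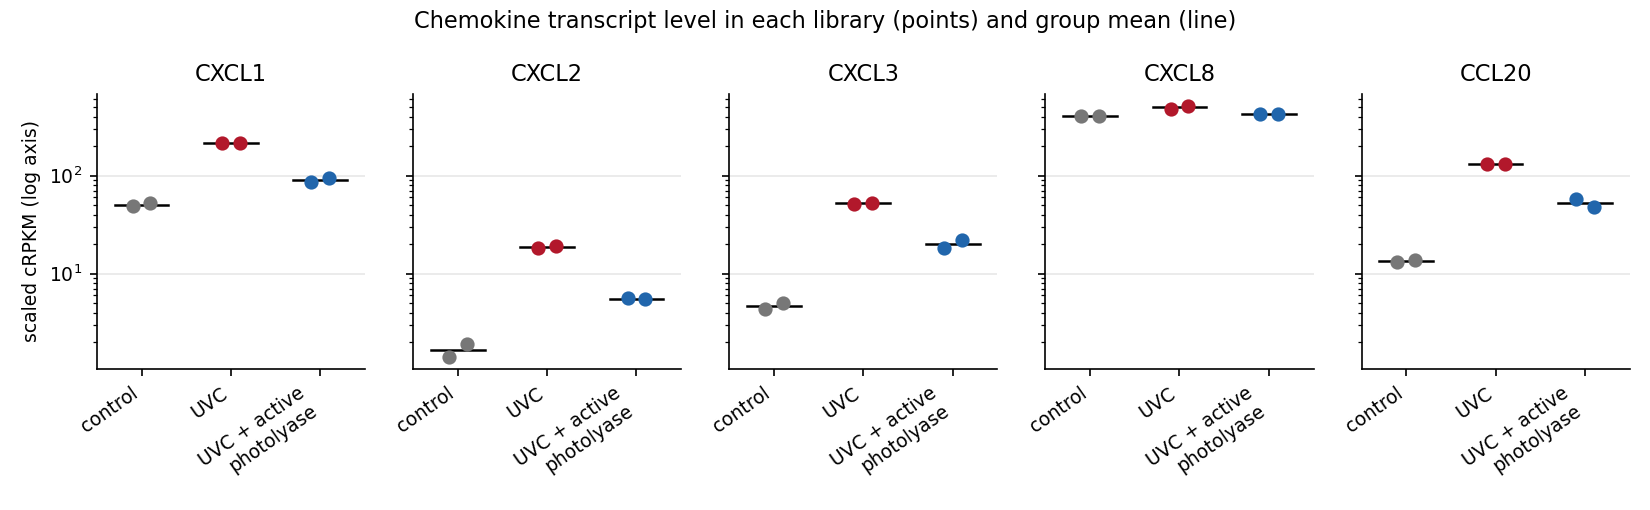
Scaled cRPKM on a log axis (y) of the 5 chemokine genes in each library (points) and the mean of each group (lines), for control, UVC and UVC + active photolyase. UVC libraries were the highest for every gene, from 18.2 for CXCL2 to 512 for CXCL8, and the libraries with active photolyase lay between UVC and control.

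CXCL1 encodes an ELR chemokine that keratinocytes release after injury. The control libraries gave 48.6 and 52.2 scaled cRPKM, the UVC libraries 214 and 217, and those with photolyase active 85.6 and 94.6. The 3 groups did not overlap, with UVC highest and active photolyase intermediate. How many of all tested genes also did not overlap was not counted, here or for the genes below. The group means were 50.4 ± 2.54, 215 ± 2.04 and 90.1 ± 6.41 scaled cRPKM (SD, n = 2 in each). UVC raised CXCL1 4.28-fold over control, or 2.10 ± 0.06 on the log2 scale (SE, adjusted p = 9.58e-13 by edgeR's quasi-likelihood test with Benjamini-Hochberg adjustment, as for every adjusted p that follows). CXCL1 was 2.39-fold lower with active photolyase than after UVC, a log2 difference of -1.26 ± 0.06 (adjusted p = 1.81e-10), and remained 1.79-fold above control (0.84 ± 0.06, adjusted p = 7.53e-08).

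CXCL2, known as MIP-2 alpha, was the least abundant of the 5 transcripts. Its level was 1.42 and 1.91 scaled cRPKM without irradiation, 18.2 and 18.9 in UVC cells, and 5.63 and 5.46 once photolyase had been activated. The control values rest on 61 and 81 counts, whose 95% Poisson intervals of 46.7 to 78.4 and 64.3 to 101 cover counting error only, against 866 and 890 counts after UVC. The groups again did not overlap and kept the order UVC, active photolyase, control. The rise from 1.67 ± 0.346 to 18.6 ± 0.515 scaled cRPKM was 11.1-fold, a log2 fold change of 3.48 ± 0.13 (adjusted p = 1.03e-11). With active photolyase the mean was 5.55 ± 0.115, which was 3.35-fold below UVC (-1.74 ± 0.10, adjusted p = 2.98e-09) and 3.32-fold above control (1.73 ± 0.14, adjusted p = 3.05e-07).

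CXCL3, the MIP-2 beta gene beside CXCL2 in the cluster, stood at 4.34 and 5.03 scaled cRPKM in unirradiated cells. The UVC libraries held 51.8 and 52.1 scaled cRPKM of it and the photolyase-active libraries 18.2 and 21.9. No library of one group reached the values of another. The mean went from 4.69 ± 0.488 to 51.97 ± 0.232 scaled cRPKM after UVC, an 11.1-fold rise (log2 3.47 ± 0.10, adjusted p = 8.24e-13). With active photolyase it was 20.1 ± 2.62, or 2.59-fold below UVC (-1.37 ± 0.08, adjusted p = 2.97e-09), and stood 4.29-fold above control (2.10 ± 0.10, adjusted p = 2.53e-09). That was the largest log2 difference from control among the 5 genes once the photolyase was active.

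CXCL1, CXCL2 and CXCL3 are close paralogs, and some reads could match more than 1 of them. Of the 50-base windows of their transcripts, 94.3% for CXCL1, 90.8% for CXCL2 and 94.7% for CXCL3 were not found in the other genes of the 5. The deposited counts and cRPKM imply an effective length for each gene, and it equalled all 1656 possible 50-base windows of the CXCL8 transcript and all 751 of CCL20 (GENCODE v29 transcripts). For the 3 paralogs it was shorter than the windows not shared among the 5, at 698 of 1048 windows (66.6%) for CXCL1, 689 of 1169 (58.9%) for CXCL2 and 843 of 1026 (82.2%) for CXCL3, and the source of the difference was not tested. With the counts of the 3 genes summed into a single feature, which no division of reads among them can alter, the log2 fold change was 2.36 ± 0.06 for UVC against control (adjusted p = 5.53e-13), -1.31 ± 0.06 for active photolyase against UVC (adjusted p = 2.01e-10) and 1.05 ± 0.06 for active photolyase against control (adjusted p = 1.56e-08). Most of these counts were credited to CXCL1. In control it had 4350 counts over both libraries, beside 142 for CXCL2 and 488 for CXCL3. After UVC it had 20633, beside 1756 and 6012. The sum therefore says little about CXCL2 and CXCL3 separately. It also cannot recover reads that were counted for none of the 3 genes.

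CXCL8, the classical neutrophil attractant of human skin, was already abundant before irradiation and changed little. The untreated libraries held 409.6 and 408 scaled cRPKM of it, the UVC libraries 482 and 512, and the photolyase-active libraries 426 and 422. By mean level it ranked 198 of 11926 tested genes in untreated cells, 149 in UVC cells and 200 in photolyase-active cells. The means were 409 ± 0.924, 497 ± 21.1 and 424 ± 2.84 scaled cRPKM (SD, n = 2 in each), and the groups did not overlap. The rise after UVC was 1.22-fold (log2 0.28 ± 0.05, adjusted p = 0.000186), and the level with active photolyase was 1.17-fold below UVC (-0.23 ± 0.05, adjusted p = 0.00124). Active photolyase and control differed by 0.05 ± 0.05 (adjusted p = 0.380), which does not show that the levels were equal. The scaling shifts every gene alike and so weighs most on a small change: with library totals in place of edgeR's factors the log2 fold changes were 0.70, -0.54 and 0.16, while the median of all tested genes moved to 0.42, -0.34 and 0.12. The difference between active photolyase and control was then called (adjusted p = 0.0149), in a test against 0 and not against that median.

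CCL20, the CCR6 ligand, rose by a factor close to that of CXCL2 and CXCL3 from a higher starting level. It was measured at 13.0 and 13.9 scaled cRPKM in untreated cells and at 132.6 in each UVC library. Activation of photolyase left it at 57.8 and 48.2. The libraries of each group stood clear of the others, although those with active photolyase were the most spread (53.0 ± 6.74, against 13.4 ± 0.631 in control and 133 ± 0.00593 after UVC). UVC raised CCL20 9.88-fold (log2 3.30 ± 0.08, adjusted p = 2.43e-13). Active photolyase libraries were 2.502-fold below UVC (-1.32 ± 0.07, adjusted p = 1.10e-09) and 3.95-fold above control (1.98 ± 0.08, adjusted p = 6.31e-10).

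**Figure D2:**
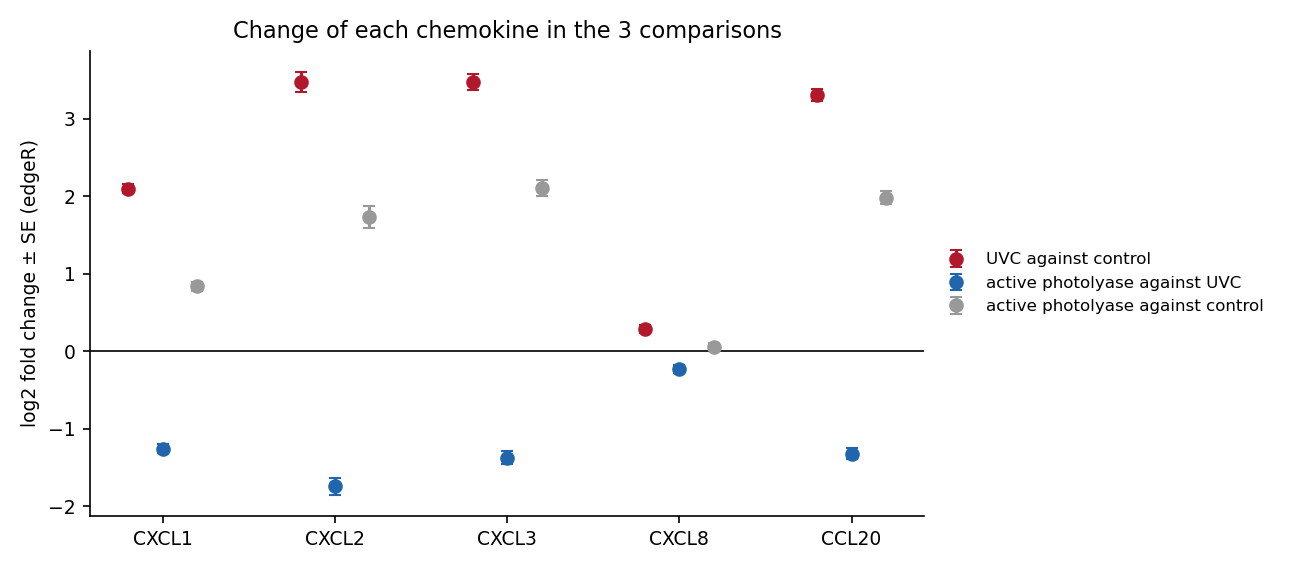
Log2 fold change ± SE from edgeR (y) for each chemokine gene (x) in the 3 comparisons, which share libraries. CXCL2, CXCL3 and CCL20 rose by 3.30 to 3.48 after UVC, CXCL1 by 2.10 and CXCL8 by 0.28, and the values against control with active photolyase ran from 0.05 to 2.10.

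Of the 5 genes, 5 were called higher after UVC at an adjusted p under 0.05, where 42.5% of the 11926 tested genes were called higher and 43.1% lower. Against UVC, 5 of 5 were lower with active photolyase, where 39.9% of all tested genes were lower and 39.2% higher. Against control, 4 of 5 were higher with active photolyase, beside 33.0% of tested genes higher and 32.9% lower, and the exception was CXCL8. With so many genes called, a call alone sets none of the 5 apart, and neither do groups of 2 libraries that do not overlap. The scaling also moved the split of calls: 5074 tested genes were higher and 5140 lower after UVC, against 7095 and 3542 with library totals. For active photolyase against UVC the split was 4676 and 4755, against 3318 and 6954, and for active photolyase against control 3933 and 3919, against 5237 and 2840. The 5 chemokine genes are therefore also placed by size. They were listed with earlier results of these data known, so the ranks describe size and do not test the list. From the highest log2 fold change after UVC, CXCL2 ranked 23, CXCL3 24, CCL20 28, CXCL1 150 and CXCL8 4533 of 11926. From the lowest log2 fold change of active photolyase against UVC, CXCL2 ranked 10, CXCL3 37, CCL20 44, CXCL1 60 and CXCL8 4455. Both comparisons use the UVC libraries, so these rankings are not independent. All 5 genes reached 1 cRPKM in every library, so none was tested only because of the group where it was high.

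**Figure D3:**
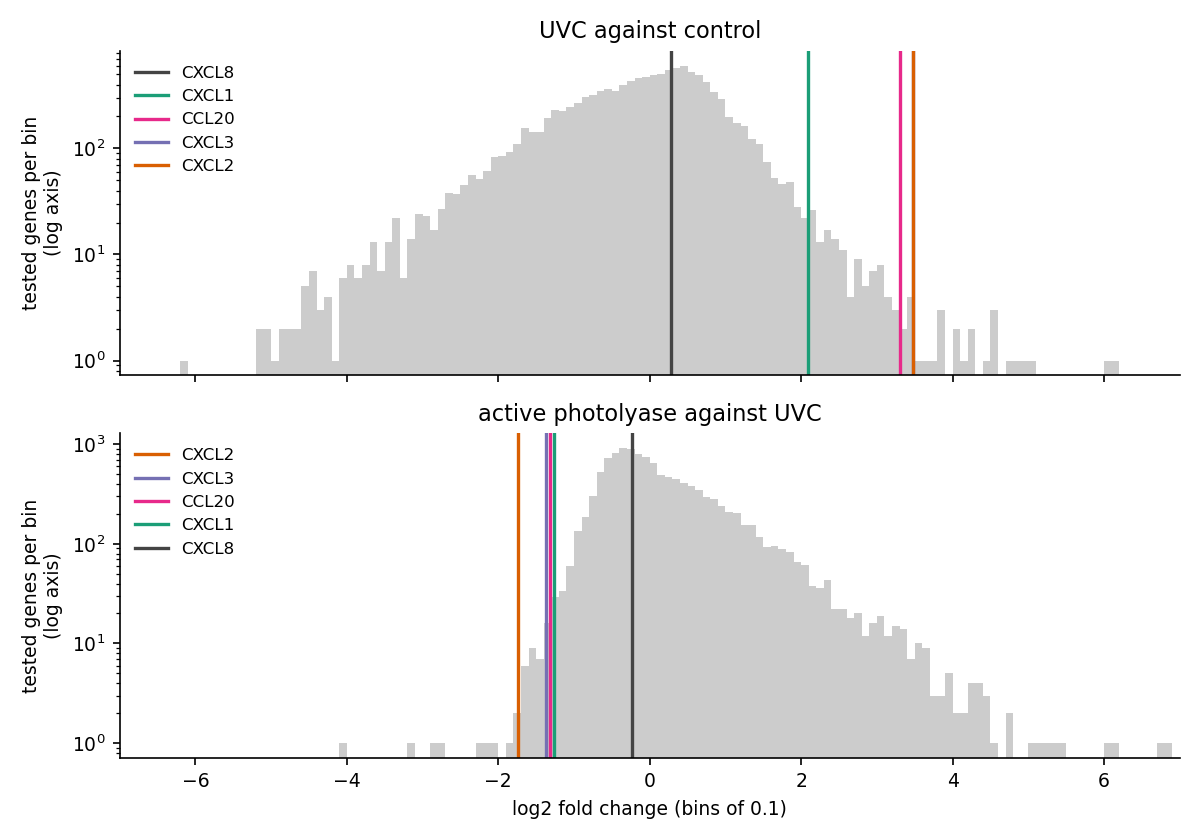
Number of tested genes (y, log axis) by log2 fold change in bins of 0.1 (x) for UVC against control (top) and active photolyase against UVC (bottom), with the 5 chemokine genes as vertical lines. CXCL2 and CXCL3 coincide in the top panel at 3.48 and 3.47, and CXCL8 lies within the bulk of genes in both panels at 0.28 and -0.23.

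The order of abundance was the same in all 6 libraries, CXCL8 first, then CXCL1, CCL20, CXCL3 and CXCL2, and no neighbours in that order overlapped within any group. What changed was their proportions. The summed level of the 5 transcripts was 477 and 481 scaled cRPKM in untreated libraries, 899 and 932 in UVC libraries, and 594 and 593 in photolyase-active libraries. CXCL8 made up 85.9% and 84.8% of that sum before irradiation, 53.7% and 54.9% in UVC cells, and 71.8% and 71.3% when photolyase was active. In the same order of groups, CXCL1 held 10.2% and 10.9%, 23.8% and 23.3%, and 14.4% and 16.0%. CCL20 held 2.72% and 2.88%, 14.7% and 14.2%, and 9.73% and 8.14%. CXCL8 thus lost share in UVC cells, CXCL1 and CCL20 gained it, and the photolyase-active libraries lay between. CXCL3 and CXCL2 were the smallest parts in every library, CXCL3 at 5.76% and 5.59% and CXCL2 at 2.03% in both libraries after UVC.

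Ratios between 2 transcripts of the same library do not depend on the scaling. There were 8.42 and 7.82 units of CXCL8 for each unit of CXCL1 in untreated libraries, 2.25 and 2.36 in UVC libraries, and 4.98 and 4.46 in photolyase-active ones. The CXCL8 to CCL20 ratio went from 31.5 and 29.4 to 3.64 and 3.86, and was 7.38 and 8.76 with active photolyase, so the groups did not overlap in either ratio. CXCL3 and CXCL2 kept nearly the same proportion after UVC, with CXCL3 to CXCL2 ratios of 3.06 and 2.63 in control and 2.85 and 2.75 after UVC. With active photolyase that ratio was 3.24 and 4.02. CXCL1 to CCL20 ratios of 3.75 and 3.76 before irradiation became 1.61 and 1.64 in UVC cells and 1.48 and 1.96 in photolyase-active cells, so those irradiated groups overlapped. In scaled cRPKM, the largest gain between the control and UVC means was in CXCL1, at 165. It was followed by CCL20 at 119, CXCL8 at 88.1, CXCL3 at 47.3 and CXCL2 at 16.9. Unlike the ratios, this order depends on the scaling. Before division by edgeR's factors, CXCL8 went from 363 and 361 cRPKM in control to 570 and 606 after UVC. CXCL1 went from 43.1 and 46.2 to 253 and 257, so the mean gain of CXCL8 was then the larger.

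**Figure D4:**
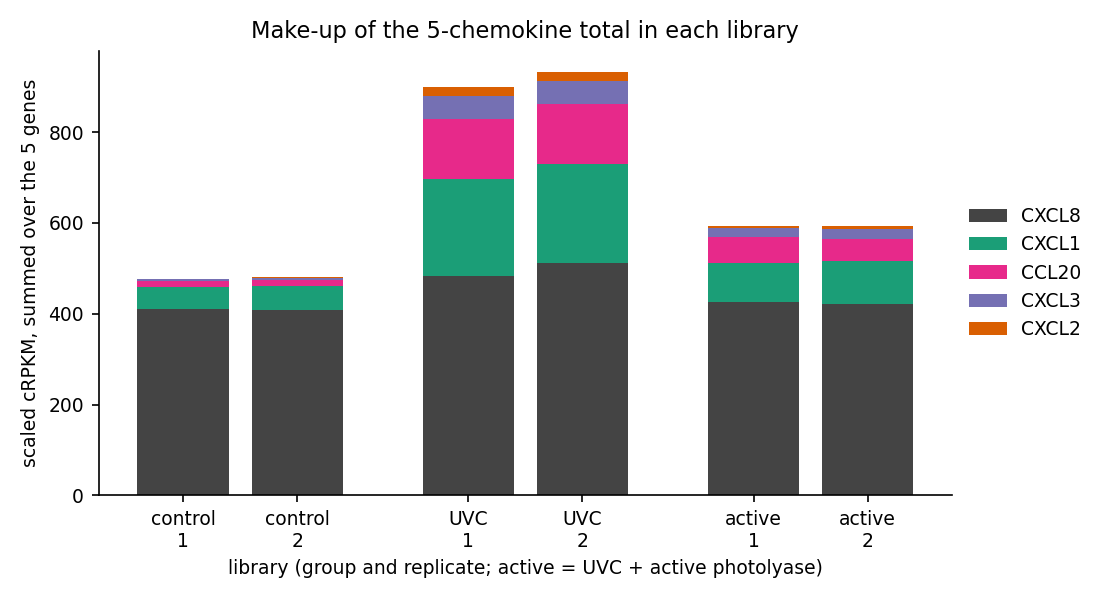
Summed scaled cRPKM of the 5 chemokine genes (y) in each library (x), stacked by gene. The sum is 477 and 481 for control, 899 and 932 for UVC and 594 and 593 for active photolyase, and CXCL8, the largest part of every bar, differs by 88.1 between the control and UVC means.

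The likeness of patterns was measured as the Euclidean distance between profiles of log2(scaled cRPKM + 1) over the 6 libraries, each centred on its control mean, among tested genes with at least 5 scaled cRPKM in their highest group. By that measure CXCL3 and CCL20, which lie on different chromosomes, were each other's nearest of 8589 genes, at a distance of 0.366. CXCL2 ranked 5 from each of them, CXCL1 ranked 35 from CXCL3 and 37 from CCL20, and CXCL8 lay at ranks 2768 and 2771. The 1 added to each level compresses low values such as the CXCL2 control mean of 1.67, which affects every distance from CXCL2. Without that 1, the edgeR log2 fold changes after UVC were 3.48 for CXCL2, 3.47 for CXCL3 and 3.30 for CCL20. Seen from CXCL1, CXCL2 ranked 176, CXCL3 1177 and CCL20 1210. Seen from CXCL8, the other members ranked 7840 to 8525. Outside the 5 genes, IFNL1, IFNB1 and DLX2 were nearest to both CXCL3 and CCL20, TNFSF9, GADD45B and TNFAIP2 to CXCL1, and ZNG1C, FOS and IL6 to CXCL2. AOPEP, MRPL13 and HIKESHI were nearest to CXCL8. TMC8 (distance 0.238), MSC (0.281), ENSG00000198366 (0.282), FOS (0.304) and ZNG1C (0.387) were nearest to the mean profile of the 5, out of 8585 other genes. FOS, an AP-1 subunit, had mean levels of 13.9 (control), 83.7 (UVC) and 33.0 (active photolyase) scaled cRPKM. ENSG00000198366 and ZNG1C were at 0.158 and 0.215 scaled cRPKM in control, passed the filter through irradiated libraries alone and had log2 fold changes of 4.96 and 4.85 after UVC, above that of any of the 5, and the 1 added to each level compresses such low values in the distance. ZNG1C also has near-identical copies, so its value is uncertain.

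Of the remaining genes of the chromosome 4 cluster, CXCL5 and CXCL6 rose after UVC by less than CXCL1, CXCL2 and CXCL3 and by more than CXCL8 in these values (differences between genes were not tested), and the others had few counts. CXCL5, an ELR chemokine between PPBP and CXCL3, rose from 3.84 to 6.74 scaled cRPKM after UVC (log2 0.82 ± 0.08, adjusted p = 6.07e-07) and was at 6.27 with active photolyase, a difference of -0.11 from UVC that did not pass the test (adjusted p = 0.236). CXCL6, next to CXCL8, rose from 15.1 to 19.96 (0.41 ± 0.09, adjusted p = 0.000742) and was higher again with active photolyase at 25.3 (0.34 ± 0.09 against UVC, adjusted p = 0.00261). With library totals that CXCL6 difference was 0.03, where the median of all tested genes was -0.34. The platelet chemokine genes were barely detected, PPBP with 5 to 30 counts, PF4V1 with 0 or 1 and PF4 listed at 0 in every library, and were not tested.

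Transcripts of CXCR1, CXCR2 and CCR6, the receptors named above for these ligands, were scarce. Of 12 receptors and scavengers, 4 passed the low-value filter: after UVC 2 rose, 1 fell and 1 did not pass the test, with a median log2 fold change of 0.21 beside 0.00 over all tested genes. CXCR2, the shared receptor of the ELR chemokines, had 69 and 52 counts in untreated libraries, 194 and 190 in UVC libraries and 95 and 90 in photolyase-active ones. Its level rose from 0.407 to 1.16 scaled cRPKM (1.52 ± 0.17, adjusted p = 1.52e-06) and was at 0.591 with active photolyase, but it passed the filter through the UVC libraries alone. CXCR1 had 10 to 47 counts and CCR6, the CCL20 receptor, 18 to 45, and neither was tested. ACKR3, a scavenger of CXCL12 and CXCL11, rose from 15.3 to 28.8 scaled cRPKM (0.91 ± 0.06, adjusted p = 3.48e-09) and was at 28.9 with active photolyase. ACKR4, a scavenger whose ligands include CCL19, CCL21 and CCL25, fell from 9.09 to 3.88 (-1.22 ± 0.08, adjusted p = 2.50e-09) and stood at 15.6 with active photolyase. CXCR4 was at 0.469, 0.334 and 1.21 scaled cRPKM (log2 -0.48 after UVC, adjusted p = 0.0527), and passed the filter through the active photolyase libraries alone. ACKR1, ACKR2, CXCR3, CCR2 and CCR10 had 0 to 57 counts and were not tested.

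Of 15 listed further chemokines of keratinocytes, 11 were tested. After UVC 10 rose and 1 fell, with a median of 1.27 beside 0.00 over all tested genes. For every list, the background after UVC was 42.5% of tested genes called higher and 43.1% lower. For active photolyase against UVC it was 39.2% higher and 39.9% lower, and against control 33.0% higher and 32.9% lower. CXCL9, CCL22 and CCL27 among the 11 passed the filter through irradiated libraries alone. CCL2, the monocyte attractant, went from 87.9 to 350 scaled cRPKM (2.00 ± 0.08, adjusted p = 1.64e-11), and CXCL10, an interferon-induced CXCR3 ligand, from 13.0 to 43.1 (1.73 ± 0.08, adjusted p = 1.38e-10). CXCL16 fell (-0.15 ± 0.05, adjusted p = 0.0165), but was at 0.26 with library totals, where the median of all tested genes was 0.42. Against UVC, 5 of the 11 fell with active photolyase, 1 rose and 5 did not pass the test, with a median of -0.25 beside -0.04. With library totals 9 fell and 0 rose (median -0.56 beside -0.34). CCL2 was lower by a log2 difference of -1.09 ± 0.07 (adjusted p = 1.10e-08) and CXCL10 by -0.26 ± 0.07 (adjusted p = 0.00625), beside -1.26 to -1.74 for CXCL1, CXCL2, CXCL3 and CCL20. Against control, 9 of the 11 were higher with active photolyase, CXCL16 among them (0.15 ± 0.05, adjusted p = 0.0301), with a median of 0.90 beside 0.01.

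**Figure D5:**
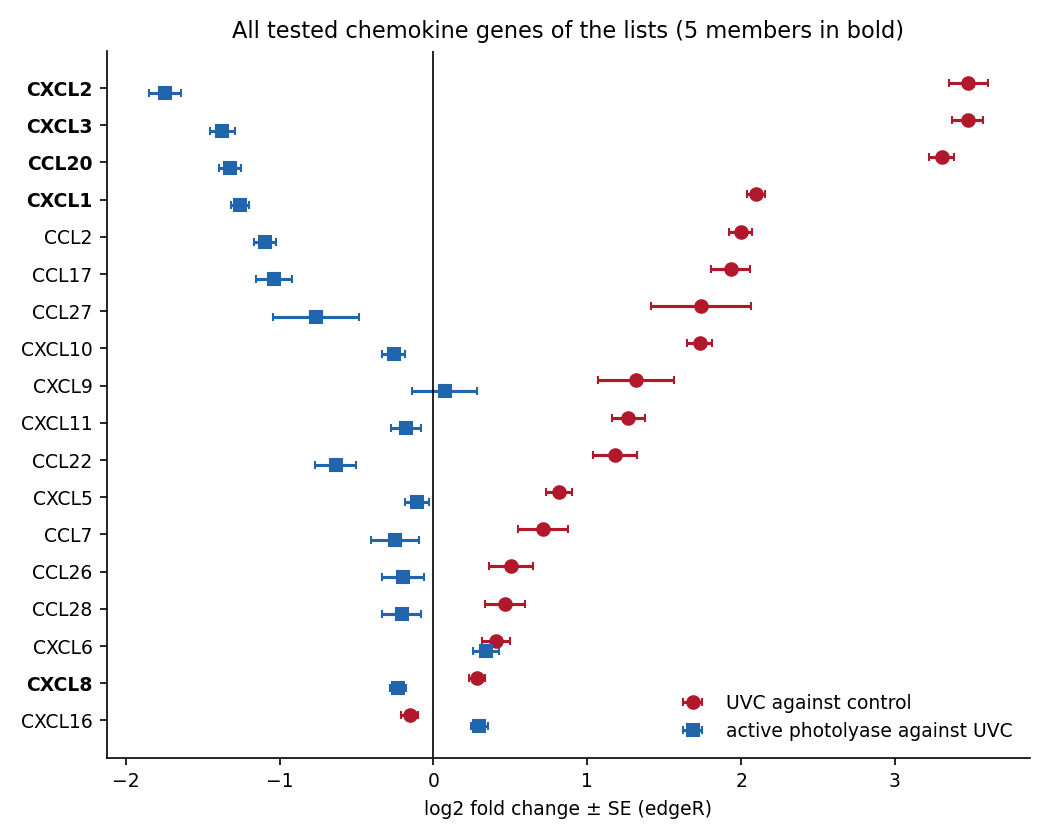
Log2 fold change ± SE (x) of the 18 tested chemokine genes (y), for UVC against control (circles) and active photolyase against UVC (squares). CXCL2, CXCL3, CCL20 and CXCL1 hold the first 4 places after UVC, from 3.48 to 2.10, and CXCL8 is second from the bottom at 0.28.

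Genes that act upstream of the chemokines moved in both directions. Of 18 tested cytokines and receptors of the TNF, interleukin-1, interleukin-17 and Toll-like receptor pathways, 10 rose and 8 fell after UVC (median 0.33). TNF rose from 0.847 to 20.01 scaled cRPKM and IL1A, an alarmin of keratinocytes, from 41.8 to 129 (1.62 ± 0.06, adjusted p = 1.10e-11). IL1R1, the interleukin-1 receptor, fell from 10.95 to 1.54 (-2.83 ± 0.07, adjusted p = 2.58e-13) and TRAF6, its signalling adaptor, from 9.03 to 2.10 (-2.10 ± 0.06, adjusted p = 1.27e-12). With active photolyase TNF was at 2.92, IL1A at 104, IL1R1 at 9.35 and TRAF6 at 6.85. TNF and IL17C passed the filter through irradiated libraries alone. Against UVC, 9 of the 18 rose, 8 fell and 1 did not pass the test (median 0.12 beside -0.04).

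Of 19 tested regulators of the NF-kB and AP-1 family, 9 rose after UVC, 8 fell and 2 did not pass the test (median 0.11), against 12 higher and 7 lower with library totals (median 0.52). FOS rose by 2.59 ± 0.06 (adjusted p = 1.86e-13), and NFKBIA, the inhibitor that NF-kB itself induces, went from 65.7 to 170.2 scaled cRPKM (1.38 ± 0.05, adjusted p = 1.29e-11). NFKB1, which encodes the p50 subunit, fell from 57.7 to 7.14 (-3.01 ± 0.05, adjusted p = 1.84e-14) and TNFAIP3, the A20 inhibitor of the pathway, from 278 to 79.6 (-1.80 ± 0.06, adjusted p = 5.41e-12). With active photolyase NFKBIA was at 110.3, NFKB1 at 23.4 and TNFAIP3 at 220.2. Against UVC, 9 of the 19 rose, 7 fell and 3 did not pass the test (median 0.02), against 7 higher and 10 lower with library totals (median -0.29).

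Among 11 regulators of AU-rich mRNA decay and stability, 5 rose and 6 fell after UVC (median -0.33). With library totals 5 rose and 2 fell (median 0.09), and ZFP36L2, KHSRP and TIAL1 changed sign. ZC3H12A, an endonuclease that cuts inflammatory mRNAs, went from 19.5 to 46.1 scaled cRPKM (1.24 ± 0.06, adjusted p = 7.65e-11) and ZFP36, the decay factor tristetraprolin, from 59.1 to 127 (1.11 ± 0.05, adjusted p = 1.86e-10). MAPKAPK2, the kinase that inactivates tristetraprolin, fell from 74.6 to 11.7 (-2.67 ± 0.05, adjusted p = 2.91e-14) and HNRNPD, another AU-rich binding protein, fell as well (-0.95 ± 0.06, adjusted p = 1.57e-09). Against UVC, 6 of the 11 rose and 5 fell (median 0.20), or 3 and 5 with library totals (median -0.10), with MAPKAPK2 at 56.4 and ZFP36 at 57.9 with active photolyase.

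Of 4 tested signals for neutrophil growth and adhesion, 3 rose after UVC and 1 fell (median 0.50), or 3 and 0 with library totals (median 0.91). IL6 went from 59.5 to 355 scaled cRPKM (2.58 ± 0.06, adjusted p = 1.55e-13) and CSF2, the growth factor GM-CSF, from 2.03 to 3.45 (0.76 ± 0.16, adjusted p = 0.000537). LIF fell (-0.29 ± 0.06, adjusted p = 0.000656) and was at 0.13 with library totals, again beside a median of 0.42. Against UVC, 3 of the 4 fell with active photolyase and 1 rose (median -0.46). CSF2 was the one that rose, by 0.87 ± 0.14 to 6.29 scaled cRPKM (adjusted p = 5.47e-05), opposite to the direction of the 5 chemokines, while IL6 was at 180.2.

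Apart from the 5 genes, 60 tested genes had the strict NF-kB motif in their promoter window. After UVC 53.3% of them were called higher and 38.3% lower (median 0.20), beside 42.0% and 44.1% of the 9452 tested genes with a window (median -0.02). Against UVC, 38.3% rose and 40.0% fell with active photolyase (median -0.06), beside 39.97% and 40.1% (median -0.03). No test of this set was made.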

How the data were processed

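RNA of 6 HaCaT libraries was sequenced from Illumina TruSeq libraries, per the labels' protocols, and aligned with Bowtie to hg19, per the submitters' processing notes. The deposited read counts per gene are whole numbers made by the authors, and the deposited cRPKM values are RPKM per uniquely mappable position. No source used here gives the counting rule, strand setting or annotation. Of 19847 genes per file, 354 had no value and were left out.

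Testing of the counts used edgeR 4.0.16 (R 4.3.3): the quasi-likelihood test with TMM factors, all 6 libraries and 3 group means in a single model, with 3 residual degrees of freedom. The spread of each gene was moderated by that of the other genes, with 10.03 prior degrees of freedom (median), so it is largely borrowed from them. Genes with at least 1 cRPKM in at least 2 libraries were tested (11926), with Benjamini-Hochberg adjustment over all of them and a threshold of 0.05. The procedure was run on simulated counts in which a small set of genes was raised in UVC alone. That run did not cover data in which most genes are called, and so did not test the scaling there. Counts of replicates differed by more than sampling noise (chi-square per degree of freedom 4.77 to 20.6), so none was a duplicate deposit. Library totals of 57669389 counts or more make the upper limit of an undetected gene 3 counts per library, which covers counting error only.

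The 5 members and all gene lists were chosen with earlier results of these data known. By the naming rule, the members, every cluster gene and receptor, up to 2 genes each way with the smallest p after UVC per list, and the genes nearest in pattern were named. CCL5, IKBKG and PECAM1 matched no symbol and have no value here. A further listed receptor is not reported here. Alternatives were library totals, DESeq2 1.42.0, limma 3.58.1 on log2(cRPKM + a pseudocount of 0.1, 1 or 2), no filter or a filter of 5 cRPKM, only the groups compared, the replicate block and leaving out each library.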

Additional observations from a re-analysis of the deposited data

How the results depend on the processing

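Over 270 alternative values of the log2 fold changes of the 5 genes and of the summed CXCL1, CXCL2 and CXCL3, 270 kept their direction and 266 their side of the threshold. The 4 that crossed were all CXCL8 for active photolyase against control, which became called using library totals (0.16, adjusted p = 0.0149) or limma with a pseudocount of 1 (0.16, adjusted p = 0.0232), 0.1 (0.16, adjusted p = 0.0367) or 2 (0.16, adjusted p = 0.0140), as these leave out edgeR's TMM factors. Adjusted p for that comparison ran up to 0.956, without a filter. CXCL8 after UVC ranged from 0.19 (no filter) to 0.70 (library totals), and against UVC from -0.54 to -0.19. CXCL2 after UVC was 2.79, and 1.07 against control with active photolyase, with a pseudocount of 2, which understates low values. Leaving out a library, with the lone one of its group assumed to vary like the others, ended no call of the 5 genes.

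The labels share replicate numbers, but deviations of same-numbered libraries correlated by -0.02, 0.05 and 0.18, so the numbers were not taken to pair the samples. With a replicate block, 85.8%, 79.5% and 66.6% of tested genes were called in the 3 comparisons, CXCL8 after UVC was 0.28, and no call of the 5 genes changed.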
